A study of Saccharomyces cerevisiae with 25 samples.

Results

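The comparison is between the first and the second hour that budding yeast spent in medium without phosphate. The first hour holds the libraries taken 15, 30, 45 and 60 min after the move and the second hour those taken at 75, 90, 105 and 120 min, which is 8 of the 25 libraries of the course. A gene entered if it had a value in at least 3 of the 4 libraries of each hour, which kept 4476 of 6650 named entries. A further 800 genes were listed in some of the 8 libraries but not tested, and 3435 of the tested genes had a value in all 8. All libraries came from the laboratory strain BY4741 carrying pho84pr-YFP, a yellow fluorescent protein gene behind the PHO84 promoter, and pho90_OX, an overexpression of the low-affinity phosphate transporter gene PHO90. The 0 min library was taken in high phosphate, after which the cells were washed and moved, and 24 libraries followed every 15 min up to 360 min. No washed culture returned to high phosphate was analysed here, so the move itself and the lack of phosphate cannot be told apart. The overexpression is in every library, 0 min included, and there is 1 library per time point, so the 4 time points of an hour stand in for replicates. Their spread holds library noise and any change inside the hour, nothing in the labels says that they came from separate cultures, and the p-values measure only that spread.

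Yeast senses falling phosphate through a cyclin-dependent kinase, Pho85, and its cyclin Pho80. When phosphate is short the inhibitor Pho81 blocks the kinase, the transcription factor Pho4 stays in the nucleus, and the genes for high-affinity transporters, secreted acid phosphatases and polyphosphate synthesis are switched on. Handling and nutrient shifts are also known to set off a short-lived stress response in yeast, in which the factors Msn2 and Msn4 raise general stress genes, and Rpn4 is the factor that raises the genes of the proteasome, the protease complex that degrades ubiquitin-tagged proteins.

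Values are deposited as log2 RPM (log2 of reads per 1000000 reads in listed genes), a share of a library that is not divided by gene length, so genes are compared with themselves and not with each other. Reads in listed genes ranged from 450744 at 15 min to 1241915 at 45 min in the first hour and from 1522246 at 120 min to 2271193 at 90 min in the second. Genes under 15 reads have no value, so the lowest level that could be listed was 5.06 at 15 min, 3.59 to 3.80 at the other first-hour times and 2.72 to 3.30 in the second hour. The genes that only cells of mating type a express, MFA1, MFA2, STE2, STE6, BAR1 and AGA2, were listed in all 25 libraries. ASG7, also a-specific, was listed in 19 of 25 and 7 of the 8. The alpha-specific pheromone gene MF(ALPHA)2 was listed in none of them, and MF(ALPHA)1 in 2 of 25 and none of the 8. Other alpha-specific genes were listed more often, STE3 in 22 of 25 and all 8, at 4.01 to 5.61, and SAG1 in 7 of 25 and 4 of the 8. HIS3, LEU2 and MET17, which BY4741 lacks, were listed in none, and URA3, also deleted in this strain, was listed at 3.69 at 45 min and 3.70 at 105 min, close to the floor. PHO90 stood at 11.38, 11.39, 11.35 and 11.14 in the first hour and at 11.07, 11.07, 11.35 and 11.20 in the second, against 10.68 at 0 min. Its hours overlapped, and the difference of -0.14 ± 0.10 (log2, SE, n = 4 per hour) did not pass limma's test (adjusted p = 0.554).

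Few genes separated the hours. With limma and Benjamini-Hochberg adjustment over all 4476 genes, at an adjusted p under 0.05 and a difference of at least 1.5-fold, 8 genes were higher in the second hour (0.179% of those tested) and 53 were lower (1.18%). The median difference over all genes was -0.04 (log2), and with each library centred on its median over the genes listed in all 25 libraries it was 0.001. After centring 11 genes were higher (0.246%) and 33 lower (0.737%), and these held all 8 higher calls and 33 of the 53 lower calls. At an unadjusted p under 0.05 there were 203 higher (4.54%) and 436 lower (9.74%) genes, and the 4 values of one hour lay wholly above those of the other for 135 genes that were higher (3.02%) and 247 that were lower (5.52%).

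The number of calls rested on single libraries. Leaving out the 15 min library gave 13 higher and 35 lower genes, the 30 min library 5 and 7, the 45 min library 19 and 61, and the 60 min library 28 and 130. Without the 75 min library there were 12 higher and 33 lower genes, without the 90 min library 4 and 9, without the 105 min library 6 and 25, and without the 120 min library 7 and 11. Calls present in all 8 of these fits were PHM6, FET3, FTR1 and VTC1 among the higher genes and YKL071W, HSP12, ECM29, BAT2, PYC1, ADH6 and RIB4 among the lower ones. limma without its trend and robust options called 2 genes in each direction, although the values and differences themselves did not change.

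**Figure D1:**
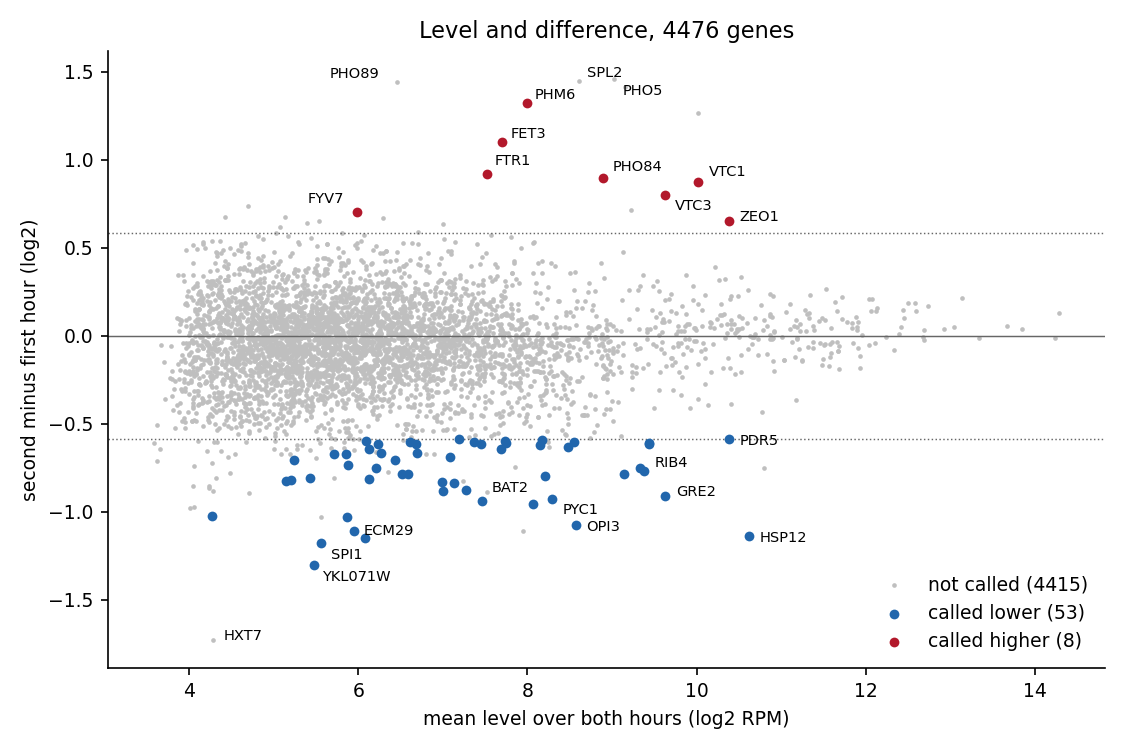
Mean level over both hours (x, log2 RPM) against the difference between the second and the first hour (y, log2) for each tested gene, with called genes in colour and dotted lines at 1.5-fold. The 8 genes called higher lie between 0.65 and 1.32 and the 53 called lower between -1.30 and -0.59, while SPL2, PHO5, PHO89 and HXT7 lie further out in grey where adjusted p was above 0.05.

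Of the 8 genes called higher, 4 were phosphate genes, PHM6, PHO84, VTC1 and VTC3. The Pho4 motif, the letters CACGTG or CACGTT on either strand within 500 bases before the start codon, was in the promoters of 19 of the 20 tested genes of the phosphate list, against 21.0% of 6006 promoters of that length in the RefSeq annotation of build R64. These windows are shown because each lies before a phosphate gene called higher, with the motif in capitals and 20 bases on each side, read 5′ to 3′ on the strand of the gene. They are PHM6 at chrIV:1022575-1022620 (minus strand), PHO84 at chrXIII:26189-26234 (minus strand), VTC1 at chrV:302629-302674 (plus strand) and VTC3 at chrXVI:517338-517383 (minus strand), and the motif starts 279, 414, 157 and 345 bases before the start codon.
PHM6: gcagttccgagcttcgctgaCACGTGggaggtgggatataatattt
PHO84: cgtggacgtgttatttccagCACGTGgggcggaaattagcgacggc
VTC1: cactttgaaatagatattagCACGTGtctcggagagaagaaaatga
VTC3: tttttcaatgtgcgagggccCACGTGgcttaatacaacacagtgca

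PHM6 (YDR281C, chromosome IV, 1022007 to 1022321), a gene of unknown function known for its induction by low phosphate, rose most among the called genes. It was listed at 6.98, 6.98, 7.48 and 7.88 in the first hour and at 8.37, 8.55, 8.61 and 9.07 in the second. Every second-hour value was above every first-hour value, and the level of 6.59 at 0 min was below all 8. The difference was 1.32 ± 0.19 (log2, SE, n = 4 per hour), with a limma adjusted p of 0.00194, and it lay between 1.18 and 1.504 when any 1 library was left out.

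PHO84 (YML123C, chromosome XIII, 24037 to 25800) encodes the main high-affinity phosphate transporter, and its promoter also drives the reporter of this strain. Its level climbed at each of the 8 times, from 7.96, 8.19, 8.68 and 8.93 to 9.11, 9.20, 9.44 and 9.60. The hours did not overlap and the difference was 0.90 ± 0.18 (log2, SE, limma adjusted p = 0.0209). Without the 30, 90, 105 or 120 min library the call was lost, at differences of 0.82, 0.94, 0.86 and 0.81. The sources used here do not say whether reads were counted by strand, so sense and antisense reads of PHO84 cannot be told apart.

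VTC1 and VTC3 encode parts of the vacuolar transporter chaperone complex, which makes polyphosphate, the cell's phosphate store. VTC1 (YER072W, chromosome V, 302806 to 303195) was at 9.25, 9.30, 9.78 and 10.01 and then at 10.21, 10.43, 10.53 and 10.67. VTC3 (YPL019C, chromosome XVI, 514511 to 517018) was at 8.79, 8.93, 9.50 and 9.69 and then at 9.84, 9.91, 10.18 and 10.17. Both rose with no overlap between the hours, VTC1 by 0.87 ± 0.15 (limma adjusted p = 0.00402) and VTC3 by 0.80 ± 0.17 (adjusted p = 0.0219), and the call for VTC3 was lost without the 30, 90, 105 or 120 min library, at 0.70, 0.84, 0.75 and 0.75. The other tested subunits, VTC4, which holds the catalytic site, and VTC2, differed by 0.72 ± 0.20 (adjusted p = 0.088) and 0.53 ± 0.14 (adjusted p = 0.0453) and missed the p limit and the size limit respectively.

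Some phosphate genes had larger differences that were not called, and their values also changed within an hour. The repressible acid phosphatase gene PHO5 was listed at 8.40, 8.06, 8.10 and 8.60 and then at 8.95, 9.43, 10.17 and 10.46, a difference of 1.46 ± 0.34 (limma adjusted p = 0.086). PHO89, the sodium-coupled high-affinity transporter gene, went from 5.90, 5.12, 5.94 and 5.98 to 6.38, 6.93, 7.39 and 8.005, a difference of 1.44 ± 0.33 (adjusted p = 0.0638, and 0.0337 with libraries centred, where it was called). SPL2, whose product lowers low-affinity phosphate uptake, moved mostly inside the first hour, from 7.15 to 7.43, 8.03 and 8.91, and was at 9.20, 9.33, 9.29 and 9.50 in the second (1.45 ± 0.37, adjusted p = 0.112). The hours did not overlap for any of these, nor for the acid phosphatase genes PHO11 (1.42 ± 0.36, adjusted p = 0.113) and PHO12 (1.27 ± 0.34, adjusted p = 0.133), a nearly identical pair between which reads may be split or shared. In a fit of a straight line over the 8 times, 15 of the 20 tested phosphate genes had a positive slope at an adjusted p under 0.05, these 5 among them. Over all genes this slope was counted only with the 1.5-fold limit added, at 19 higher genes, so the 15 have no matching share.

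Of 23 genes on the phosphate list 20 were tested, 4 were called higher and none lower, where all genes gave 0.179% and 1.18%. Their median difference was 0.65 (log2) against -0.04 for all genes tested, all 20 differences were above 0 under each of the 4 scalings tried, and 16 of the 20 had their highest of the 8 values at 120 min. The smallest difference was that of the polyphosphatase gene PPN1, 0.04 ± 0.13, and its sign was negative without the 60 or the 105 min library. Leaving out 1 library at a time gave 2 to 10 called members. PHM7, GIT1 and CTF19 had no value in the 8 libraries. Reads in the 20 genes made up 0.533% ± 0.138 of a library in the first hour and 1.02% ± 0.214 in the second (SD, n = 4), against 0.236% at 0 min. In these values, more of a transcript per cell and more cells that make it cannot be told apart.

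Of the genes of the signalling branch, none of 13 tested was called by limma in either direction, and their median difference was -0.11. An unadjusted p under 0.05 was reached by 2 on the higher and 1 on the lower side, against 4.54% and 9.74% of all genes. PHO4 was listed at 5.33, 5.27 and 4.89 from 30 min and at 4.86 to 5.16 in the second hour, with no value at 15 min. PHO85 ranged from 5.21 to 5.42 and then from 5.04 to 5.64. The cyclin gene PHO80 lay wholly lower in the second hour, at 3.40 to 4.02 after 4.08 to 4.28, with no value at 15 min (-0.53 ± 0.23, adjusted p = 0.29). PHO81, the inhibitor gene, which is a Pho4 target and stands on the phosphate list, differed by 0.53 ± 0.14 with no overlap (adjusted p = 0.0441) and fell short of 1.5-fold.

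Beside the phosphate genes, 4 genes were called higher, and all 4 had a first-hour mean below their 0 min level. They were chosen for a higher second hour, which tilts this towards a first hour below 0 min, so it is description only. Of 4245 tested genes with a 0 min value, 58.1% had a first-hour mean above it. FET3 (YMR058W, chromosome XIII, 388822 to 390732), the multicopper oxidase of reductive iron uptake, was at 8.85 at 0 min, at 6.67, 6.97, 7.23 and 7.73 in the first hour and at 8.21, 8.42, 8.43 and 7.95 in the second. FTR1 (YER145C, chromosome V, 460526 to 461740), the iron permease that works with it, was at 8.96 at 0 min, then at 6.76, 6.98, 7.18 and 7.32, and then at 7.94, 8.04, 8.10 and 7.83. Both were lowest at 15 min, came back part of the way in the second hour and showed no overlap between the hours. The differences were 1.101 ± 0.18 for FET3 (limma adjusted p = 0.00304) and 0.92 ± 0.13 for FTR1 (adjusted p = 0.00156), and both stayed called whichever library was left out.

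The Aft1 motif, TGCACCC on either strand, was in the promoters of 12 of the 18 tested genes of the iron list, against 2.33% of all promoters. One window for each of the called uptake genes is shown, FET3 at chrXIII:388551-388597 (plus strand) and FTR1 at chrV:461889-461935 (minus strand), with the motif 251 and 175 bases before the start codon.
FET3: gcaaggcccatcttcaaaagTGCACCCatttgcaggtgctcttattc
FTR1: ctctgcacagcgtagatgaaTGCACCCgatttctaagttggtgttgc

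Of 28 genes on the iron list 18 were tested, 2 were called higher and 1 lower, against 0.179% and 1.18% of all genes, and the median difference was 0.06. Of the 18 differences 10 were positive and 8 negative. The hours did not overlap for 6 members that were higher and 1 that was lower, against 3.02% and 5.52% of all genes. Those that lay wholly higher in the second hour without being called were the siderophore transporter genes ENB1 (0.64 ± 0.18, limma adjusted p = 0.0638) and SIT1 (0.53 ± 0.15, adjusted p = 0.0796), the copper pump gene CCC2 (0.55 ± 0.20, adjusted p = 0.185) and the iron-sulfur scaffold gene ISU2 (0.36 ± 0.14, adjusted p = 0.206). ENB1 and CCC2 have no value at 15 min, so 3 first-hour libraries enter their fit. ISU1, the paralog of ISU2, was the called member that fell, from 6.98, 7.003, 6.72 and 6.41 to 6.11, 6.24, 6.11 and 5.84 (-0.70 ± 0.16, adjusted p = 0.0219), and its call was lost without the 30, 90, 105 or 120 min library, at -0.63, -0.76, -0.72 and -0.62.

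FYV7, a gene of ribosomal RNA processing, was at 5.47, 5.82, 5.57 and 5.67 and then at 6.50, 6.48, 6.16 and 6.21 (0.70 ± 0.15, limma adjusted p = 0.0205), against 6.39 at 0 min. ZEO1, which encodes a protein at the inner face of the plasma membrane, was at 11.29 at 0 min, at 9.80, 9.78, 10.16 and 10.49 in the first hour and at 10.72, 10.80, 10.67 and 10.66 in the second (0.65 ± 0.13, adjusted p = 0.0133). Neither overlapped between the hours. The call of FYV7 was lost without the 75, 90 or 120 min library, at 0.65, 0.66 and 0.74, and that of ZEO1 without the 15, 30 or 90 min library, at 0.57, 0.56 and 0.62. With libraries centred the hexose transporter gene HXT2 and the purine salvage gene HPT1 were called higher as well.

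**Figure D2:**
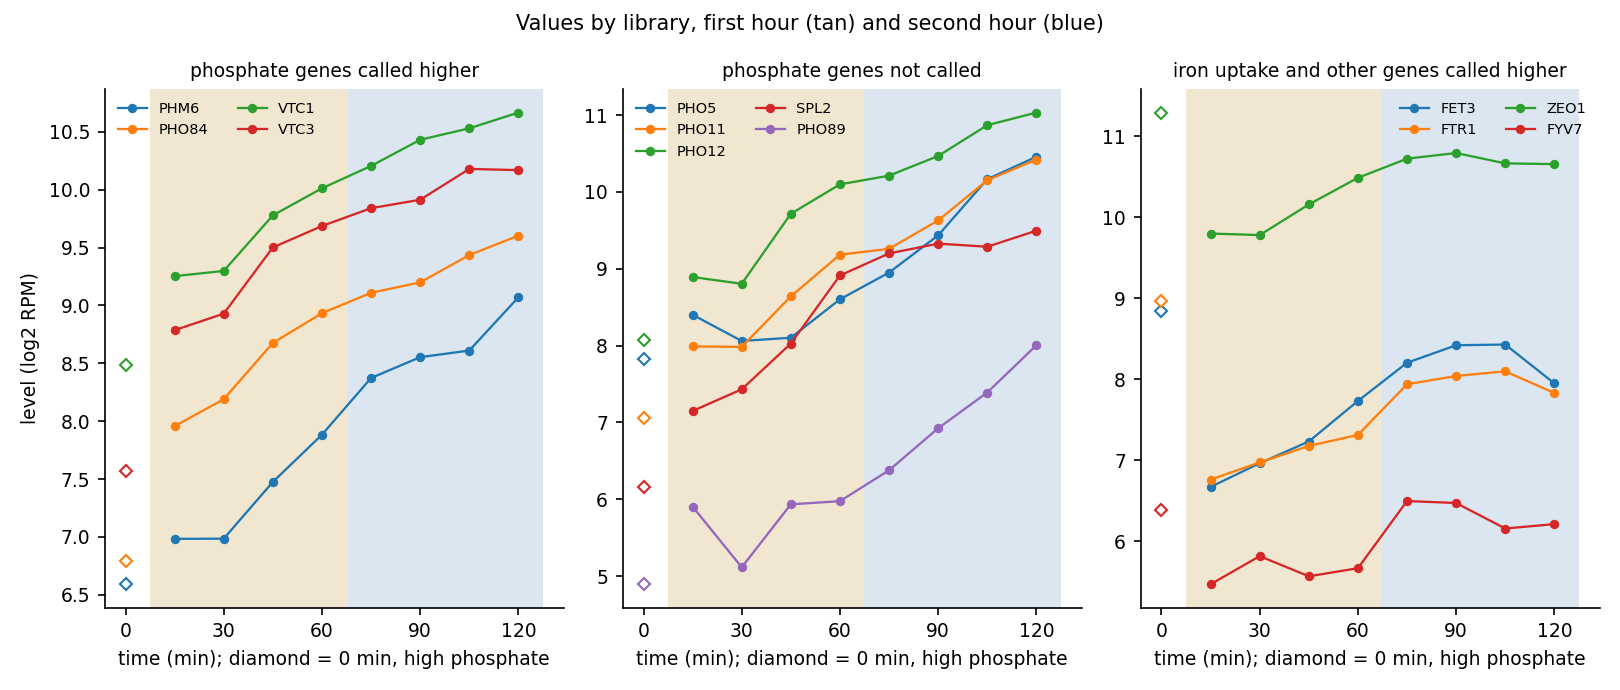
Level (y, log2 RPM) of genes higher in the second hour against time (x, min), 1 point per library, with the first hour shaded tan, the second blue and an open diamond for the 0 min library in high phosphate. The phosphate genes start above their 0 min level and end the second hour higher, and FET3, FTR1 and ZEO1 start below theirs and come back part of the way.

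The 53 entries called lower include DDR48 and YMR173W-A, whose values are nearly the same, and make 52 with this pair counted once. They were chosen for a lower second hour, so high values in the first follow from that choice. Their 0 min level was not used in that choice, but the first-hour mean was. Setting the first hour against 0 min is therefore tilted towards a first hour above it, and the counts that follow are description only. Of the 51 with a value at 0 min, 50 had a first-hour mean above it, where 58.1% of 4245 tested genes with such a value did, and 28 were at least 2-fold above, and for 39 the second-hour mean lay between the 0 min level and the first hour. Their highest value of the 8 was at 15 min for 32 genes, at 30 min for 17 and at 45 min for 4. Over the 50 that were listed in all 25 libraries, the median change from 0 min was 1.17 at 15 min, 1.23 at 30 min, 0.74 at 60 min, 0.37 at 75 min and 0.16 at 120 min (log2). The 15 min library, where most of them stood highest, is also the shallowest, and without it 35 genes were lower, 28 of them among the 53.

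The proteasome genes, a list that also holds the factor gene RPN4 and the ubiquitin gene UBI4, all had a lower mean in the second hour, and 7 of them were called. The Rpn4 motif, GGTGGCAAA on either strand, was in the promoters of 28 of the 35 tested genes of the proteasome list, against 1.65% of all promoters, and in 8 of the 52 promoters matched for the genes called lower. Windows are shown for the genes with this motif that were called, 5 on the list and 2 others, ECM29 and YOR052C, which were picked after their values were seen. Their positions are chrXV:255208-255256 for PRE6 (plus strand), chrXVI:742280-742328 for RPN7 (plus), chrXV:544845-544893 for RPT5 (plus), chrV:349501-349549 for PUP3 (minus), chrXII:65339-65387 for UBI4 (minus), chrVIII:39933-39981 for ECM29 (plus) and chrXV:427447-427495 for YOR052C (minus). PRE4 holds the motif too, 111 bases before its start codon. The letters TTTGCCACC are GGTGGCAAA read on the other strand. In YOR052C a match to the stress motif described further on lies just before it, with no shared base.
PRE6: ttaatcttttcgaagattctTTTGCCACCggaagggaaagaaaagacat
RPN7: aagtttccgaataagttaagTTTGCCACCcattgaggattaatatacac
RPT5: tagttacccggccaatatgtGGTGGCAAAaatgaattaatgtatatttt
PUP3: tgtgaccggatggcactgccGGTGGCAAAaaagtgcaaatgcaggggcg
UBI4: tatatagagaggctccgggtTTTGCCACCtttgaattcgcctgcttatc
ECM29: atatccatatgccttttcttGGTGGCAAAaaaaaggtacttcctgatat
YOR052C: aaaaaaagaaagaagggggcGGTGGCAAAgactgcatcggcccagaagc

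All 35 tested members of the list were lower in the second hour, with differences from -0.69 to -0.27 and a median of -0.45 (log2), and all 35 had an unadjusted p under 0.05, where 9.74% of all genes did. By limma 14 had an adjusted p under 0.05, where 73 of all 4476 genes were lower at that limit alone. Of the 14, 7 also passed the size limit, against 1.18% of all genes. With libraries centred 2 members were called, at a median of -0.41, and leaving out 1 library at a time gave 0 to 12, with 1 left without the 15 min library. The first-hour mean was above the 0 min level for all 35, and the second-hour mean was still above it for 23. Reads in these genes made up 1.22% ± 0.127 of a library in the first hour and 0.879% ± 0.0362 in the second (SD, n = 4).

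UMP1, a chaperone for proteasome assembly, fell most, from 7.64, 7.504, 7.13 and 7.45 to 6.98, 6.64, 6.66 and 6.68, next to 6.64 at 0 min (-0.69 ± 0.14, limma adjusted p = 0.0155). PRE6, a subunit of the core particle, fell from 9.06, 8.83, 8.64 and 8.66 to 8.33, 8.06, 8.14 and 8.12 (-0.63 ± 0.12, adjusted p = 0.0108). RPN7, of the regulatory lid, went from 8.82, 8.52, 8.16 and 8.36 to 8.004, 7.88, 7.72 and 7.77 (-0.62 ± 0.14, adjusted p = 0.0219). In these 3 genes every first-hour value was above every second-hour value. RPT5, an ATPase of the regulatory base, PUP3 and PRE4 of the core, and the polyubiquitin gene UBI4 fell by 0.61, 0.59, 0.59 and 0.61, also with no overlap. Each of the 7 calls was lost without the 30 min library, at differences of -0.67 to -0.55, and also without the 90 min library, at -0.66 to -0.53. The list member RPN4 stood at 6.79, 6.80, 6.35 and 5.95 and then at 5.99, 6.25, 6.17 and 6.04, after 5.21 at 0 min (-0.36 ± 0.17, adjusted p = 0.347).

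Genes that act beside the proteasome were among the calls but on no list, and those named here were picked after their values were seen. ECM29 (YHL030W, chromosome VIII, 40084 to 45690), which encodes a scaffold that holds the core and the regulatory particle together, was at 6.85, 6.56, 6.47 and 6.12 and then at 5.57, 5.06, 5.36 and 5.56. It fell by 1.11 ± 0.17 (log2, limma adjusted p = 0.00194), called in every fit with 1 library left out, and its second-hour values lay around the 5.53 of 0 min. YOR052C fell by 1.03 ± 0.19 (adjusted p = 0.00894), from between 5.80 and 6.90 to between 5.05 and 5.58, a call lost without the 30 min library, at -0.98. The ubiquitin-conjugating enzyme gene UBC5, the gene NPL4 for a partner of the segregase Cdc48, and DDI1, for a shuttle of ubiquitinated proteins, fell by 0.67, 0.67 and 0.82, calls kept in 4, 2 and 4 of the 8 fits with a library left out. DDI1 lies next to MAG1 (-0.81 ± 0.18), a DNA glycosylase gene read from the other strand, and both were called.

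**Figure D3:**
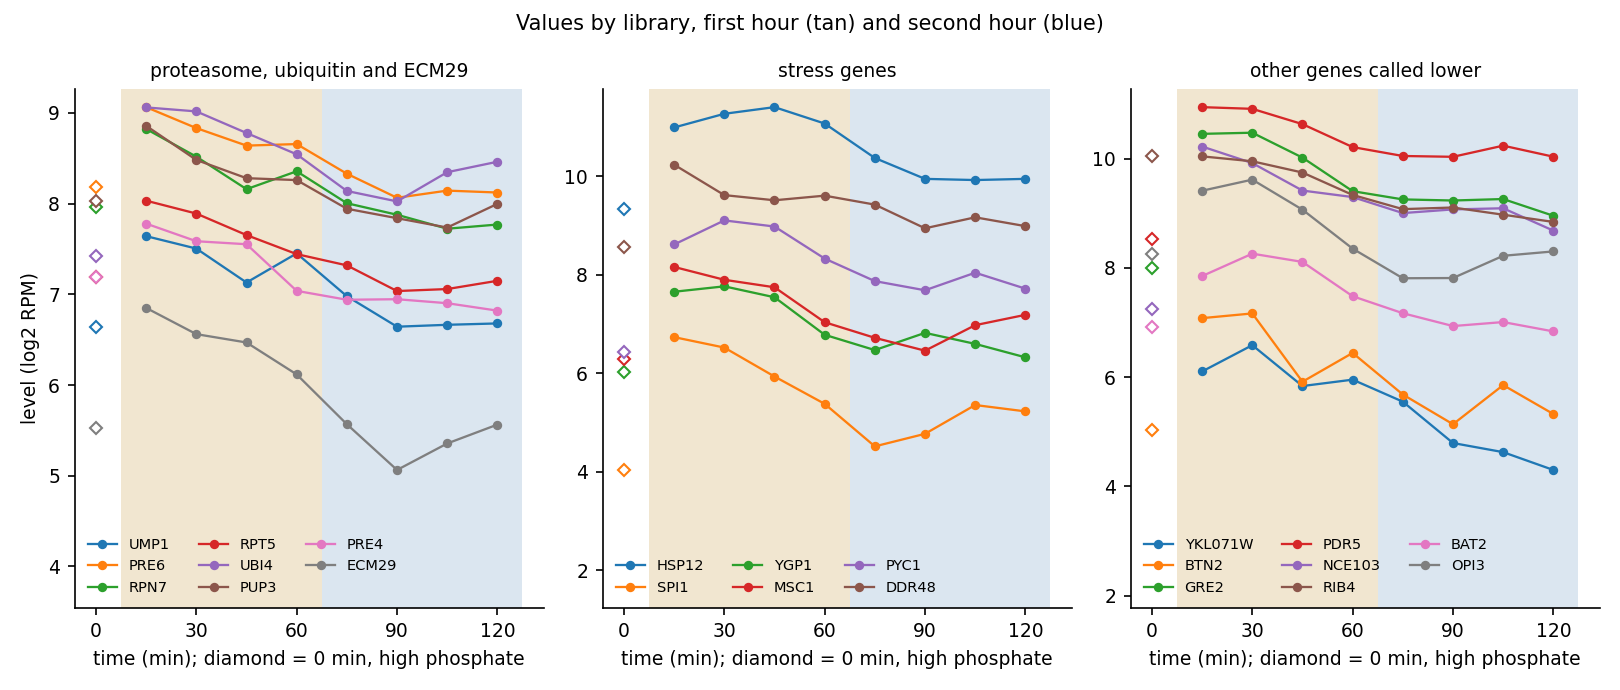
Level (y, log2 RPM) of genes called lower in the second hour against time (x, min), 1 point per library, with the first hour shaded tan, the second blue and an open diamond for 0 min in high phosphate. HSP12 falls from 10.99 to 11.41 in the first hour to 9.93 to 10.37 in the second, and the proteasome genes return to near their 0 min levels, except UBI4.

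Of the general stress genes 8 were called lower. HSP12 (YFL014W, chromosome VI, 107256 to 107585), a small membrane-associated stress protein gene, was at 10.99, 11.27, 11.41 and 11.07 and then at 10.37, 9.95, 9.93 and 9.95, after 9.34 at 0 min. The hours were far apart relative to their spread, and the difference of -1.14 ± 0.12 had the smallest limma adjusted p of all genes, 9.34e-06. Its promoter holds the letters AGGGG, the core of the Msn2 and Msn4 stress element, 5 times over both strands, and a window with 1 of them, 414 bases before the start codon at chrVI:106822-106866 (plus strand), is shown because HSP12 is a standard readout of this response.
HSP12: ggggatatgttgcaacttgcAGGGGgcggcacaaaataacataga

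This 5-letter motif was in 43 of the 48 tested promoters of the stress list, in 26 of 52 promoters of genes called lower and in 34.1% of all promoters. Of 53 genes on the stress list 48 were tested, 8 were called lower and none higher, where 1.18% of all genes were called lower, and the median difference was -0.39. With libraries centred 6 were called lower. At an unadjusted p under 0.05, 25 were lower, against 9.74% of all genes. As deposited all 48 differences were negative, after centring 47 and after trimmed mean scaling 46. Leaving out 1 library at a time gave 2 to 15 called members.

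SPI1, a cell wall protein gene, fell from 6.74, 6.52, 5.94 and 5.38 to 4.52, 4.77, 5.36 and 5.23 (-1.18 ± 0.26, limma adjusted p = 0.0283), and its lowest first-hour value was above its highest second-hour value by a narrow gap. PYC1, which encodes pyruvate carboxylase, went from 8.62, 9.11, 8.98 and 8.33 to 7.87, 7.69, 8.04 and 7.72 (-0.93 ± 0.15, adjusted p = 0.00194) and was called in every fit with 1 library left out. YGP1, a secreted glycoprotein gene, and MSC1 fell by 0.88 each, but their hours overlapped, the 60 min value of YGP1 being 6.78 and its 90 min value 6.82. ECM4, TMA10 and DDR48 were the other called members. DDR48 overlaps an entry, YMR173W-A, that was called with it and whose values differed from it by at most 0.011 in the 8 libraries, so reads may be shared between them. The calls of SPI1, YGP1, MSC1, ECM4, TMA10 and DDR48 were each lost without the 30 min library, among others, at differences of -0.65 to -1.05.

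Stress genes that were not called included well-known ones. HSP104, the disaggregase gene, was at 8.74, 8.76, 8.69 and 8.34 and then at 8.25, 8.36, 8.72 and 8.78 (-0.105 ± 0.14, limma adjusted p = 0.795), which put its 120 min value above all of the first hour. ALD4, a mitochondrial aldehyde dehydrogenase gene, went down within the first hour, from 9.49 and 8.99 to 8.15 and 7.39, and stayed between 7.23 and 7.58, so that a large difference, -1.11 ± 0.44, came with a wide error (adjusted p = 0.325). Among 29 tested heat shock and chaperone genes 1 was called lower and none higher, against 1.18% of all genes called lower, and their median difference was -0.19. That gene was BTN2, which encodes a factor that gathers misfolded proteins, at 7.08, 7.17, 5.92 and 6.44 and then at 5.68, 5.14, 5.85 and 5.32 (-1.15 ± 0.24, adjusted p = 0.0219). BTN2 was no longer called without the 30, 75, 90 or 120 min library, at -0.98, -1.21, -1.03 and -1.09. HSP82, the inducible Hsp90 gene, missed the size limit at -0.57 ± 0.14 (adjusted p = 0.037).

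The largest called fall was that of YKL071W (chromosome XI, 305114 to 305884), an unnamed reading frame. It had no value at 0 min, stood at 6.10, 6.58, 5.84 and 5.95 in the first hour and went down through the second at 5.55, 4.79, 4.63 and 4.30. The difference was -1.30 ± 0.22 (2.47-fold lower, limma adjusted p = 0.00402), with no overlap, and it was called whichever library was left out. Its promoter held the Yap1 motif TTACTAA 5 times over both strands, and a window at chrXI:304896-304942 (plus strand) shows 1 of these repeats in capitals, 198 bases before the start codon, read here as TTAGTAA, its form on the other strand, with its neighbours in lower case.
YKL071W: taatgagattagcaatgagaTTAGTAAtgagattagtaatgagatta

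Yap1 is the factor that raises antioxidant and drug export genes under oxidative stress, and its motif was in 10 of 17 tested promoters of the antioxidant list, in 9 of 52 of the genes called lower and in 11.8% of all promoters. Of the 17 genes 1 was called lower and none higher, against 1.18% of all genes called lower, 8 were lower at an unadjusted p under 0.05, against 9.74%, and the median difference was -0.29. The called one was the drug exporter gene ATR1, at 6.98, 6.99, 6.83 and 6.81 and then at 6.54, 6.10, 6.11 and 5.72 (-0.79 ± 0.16, limma adjusted p = 0.0155). Its call was lost without the 30, 90 or 120 min library, at -0.76, -0.78 and -0.65. Other reductase genes that were called stand on no list, among them GRE2 (methylglyoxal reductase, -0.91 ± 0.20), ADH6 (an alcohol dehydrogenase that uses NADPH, -0.78 ± 0.13) and ZTA1 (a quinone reductase, -0.81 ± 0.18). These calls were kept in 1, 8 and 5 of the 8 fits with a library left out.

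PDR5, the main multidrug export pump gene, was at 8.53 at 0 min, at 10.94, 10.91, 10.63 and 10.21 in the first hour and at 10.05, 10.03, 10.24 and 10.03 in the second. It fell by 0.59 ± 0.13 (limma adjusted p = 0.0219), and its second-hour values were still above the 0 min level. The 60 and 105 min values overlapped slightly, and the call was lost without the 15, 30, 75, 90 or 120 min library, at -0.50, -0.51, -0.57, -0.57 and -0.57. The palindrome TCCGCGGA, bound by Pdr1 and Pdr3, is in 0.649% of all promoters and 2 times in that of PDR5, of which a window 313 bases before its start codon shows 1 (chrXV:619507-619554, plus strand).
PDR5: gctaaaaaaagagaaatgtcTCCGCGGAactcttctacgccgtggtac

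Of the 53 entries called lower 29 were on no list, PDR5, NCE103, ADH6, RIB4, BAT2, GRE2 and ZTA1 among them. RIB4, the riboflavin synthesis gene for lumazine synthase, differed from the rest of the group in that it did not start above its 0 min level of 10.05, and it went from 10.04, 9.95, 9.75 and 9.34 to 9.07, 9.11, 8.97 and 8.84 (-0.77 ± 0.13, limma adjusted p = 0.00339). BAT2, the cytosolic branched-chain aminotransferase gene, fell from 7.85, 8.26, 8.11 and 7.48 to 7.17, 6.94, 7.01 and 6.84 (-0.94 ± 0.15, adjusted p = 0.00194). Both were called in every fit with 1 library left out. NCE103, the carbonic anhydrase gene, had 7.25 at 0 min and 10.22, 9.92, 9.42 and 9.30 in the first hour, and remained at 8.68 to 9.09 in the second (-0.75 ± 0.17, adjusted p = 0.0301, lost without the 15, 30, 75, 90, 105 or 120 min library, at -0.58 to -0.79).

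Of 28 tested genes of the phospholipid list 1 was called lower and none higher, against 1.18% of all genes called lower. Their median difference was -0.15, with 9 positive and 19 negative. The called one was OPI3, which encodes a methyltransferase of phosphatidylcholine synthesis. It moved from 9.41, 9.62, 9.06 and 8.35 to 7.81, 7.81, 8.22 and 8.30, a fall of 1.08 ± 0.24 (limma adjusted p = 0.0442), and this call was kept in 1 of the 8 fits with a library left out. Of 16 tested genes of the citric acid cycle list 13 differences were negative, with a median of -0.27, where 2591 of all 4476 genes were negative. With libraries centred 12 were negative, at a median of -0.22. As deposited 2 of the 16 were called lower, against 1.18% of all genes. They were CIT2 (-0.79 ± 0.16), which encodes the peroxisomal citrate synthase, and LSC2 (-0.67 ± 0.17), a subunit gene of succinyl-CoA ligase, which was not called with libraries centred (limma adjusted p = 0.0599). The calls of CIT2 and LSC2 were kept in 4 and 1 of the 8 fits with a library left out, and the hours of LSC2 overlapped. TDH1, the glyceraldehyde-3-phosphate dehydrogenase isozyme gene, fell by 0.64 ± 0.15, a call kept in 2 of those 8 fits, and it shares long stretches with TDH2 and TDH3. It was the only call among 19 tested glycolytic genes, against 1.18% of all genes called lower, and their median difference was -0.01. The hexose transporter gene HXT7 had the largest difference of any tested gene, -1.73 ± 0.71, but went from 6.82 at 15 min to 4.20 at 60 min and had no value at 105 min (limma adjusted p = 0.349), and reads may be shared with the nearly identical HXT6.

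No cytosolic ribosomal protein gene of 137 was called by limma, 10 of them had an unadjusted p under 0.05, all on the higher side, where 4.54% of all genes did, and their median difference was 0.05. The same genes took 33.8% ± 2.06 of the reads in the first hour and 34.9% ± 2.03 in the second (SD, n = 4), after 40.1% at 0 min. Among 144 listed genes of ribosome assembly none was called, and the median was 0.18. On the higher side 26 had an unadjusted p under 0.05 and on the lower side none, against 4.54% and 9.74% of all genes. FYV7, called higher, and REH1, called lower (-0.60 ± 0.14, limma adjusted p = 0.0228), also act in ribosome assembly but are not on that list. For the listed assembly genes the median change from 0 min was -0.97 at 15 min and between -0.57 and -0.43 in the second hour. Without the 15 min library the median difference of the assembly genes was 0.09. The 10 histone genes were all higher by 0.06 to 0.39, with none called by limma and 3 at an unadjusted p under 0.05 against 4.54% of all genes, and their first- and second-hour values overlapped.

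**Figure D4:**
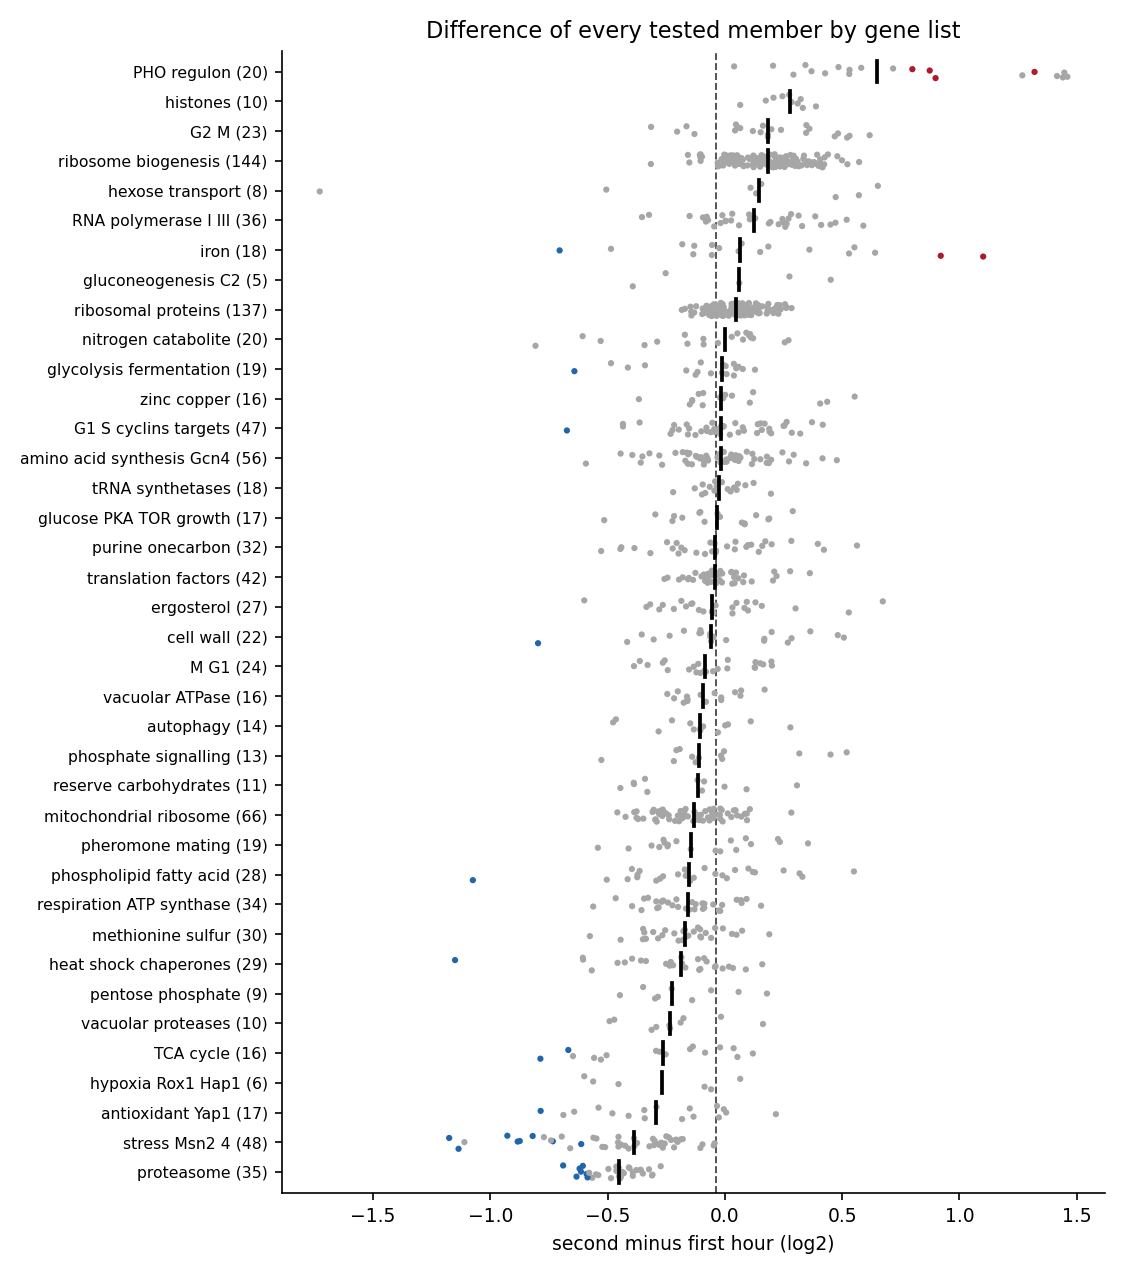
Difference between the second and first hour (x, log2) of every tested member (points) by gene list (rows, number tested in brackets), with a black bar at each list's median, a dashed line at the median of all genes tested, and called genes in red (higher) or blue (lower). The phosphate list has the highest median, 0.65, and the proteasome and stress lists the lowest, -0.45 and -0.39.

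Some genes could not be tested because they were listed in one hour alone. There were 36 genes with a value in all 4 second-hour libraries and in none of the first hour, and 0 the other way round. Their second-hour means lay between 3.31 and 4.20, under the 15 min floor of 5.06 in all cases, and 7 of them were above the highest floor of the 30, 45 and 60 min libraries, which was 3.80. The highest of these was MCM22, a kinetochore gene, at 4.16, 4.03, 4.42 and 4.20, and it had been listed at 4.04 at 0 min. As the second-hour libraries are deeper, these genes are named as listed in the second hour and not as raised.

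What followed the second hour was larger. From the second to the third hour 653 of 4734 genes were higher (13.8%) and 140 lower (2.96%), or 254 (5.37%) and 307 (6.49%) with libraries centred. From the third to the fourth 184 of 4725 were higher (3.89%) and 139 lower (2.94%), or 51 (1.08%) and 156 (3.30%) centred. No gene was called by limma in the steps to the fifth and to the sixth hour. An unadjusted p under 0.05 was reached there by 315 genes on the higher and 91 on the lower side, and then by 244 and 84. Successive steps share an hour of libraries.

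On the deposited scale most genes stood higher late in the course. A sixth-hour mean above that of the second hour was found for 84.9% of 4378 tested genes and for 46 of the 53 entries called lower (86.8%), and with libraries centred for 49.7% and 50.9%. HSP12 went from a mean of 10.05 in the second hour to 13.50 in the sixth, and ATR1 from 6.12 to 5.88. In the step to the third hour 40 of 49 tested stress genes were called higher, and 33 with libraries centred, against 13.8% and 5.37% of all genes. Of 35 proteasome genes 3 were called higher in that step and 1 with libraries centred, which are shares below those of all genes. Yet all 35 had a third-hour mean above the second on the deposited scale. Their median differences were 0.42 and, centred, 0.22, against 0.24 and 0.04 for all genes. Among the phosphate genes 12 of 20 were called higher in that step and 9 with libraries centred, with medians of 0.76 and 0.56, and all 20 had a third-hour mean above the second. Ribosomal protein genes had 84 of 137 members called lower in the third hour and 122 with libraries centred, with medians of -0.66 and -0.87, against 2.96% and 6.49% of all genes. PHM6 reached a mean of 10.59 in the sixth hour and PHO90 one of 12.22.

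**Figure D5:**
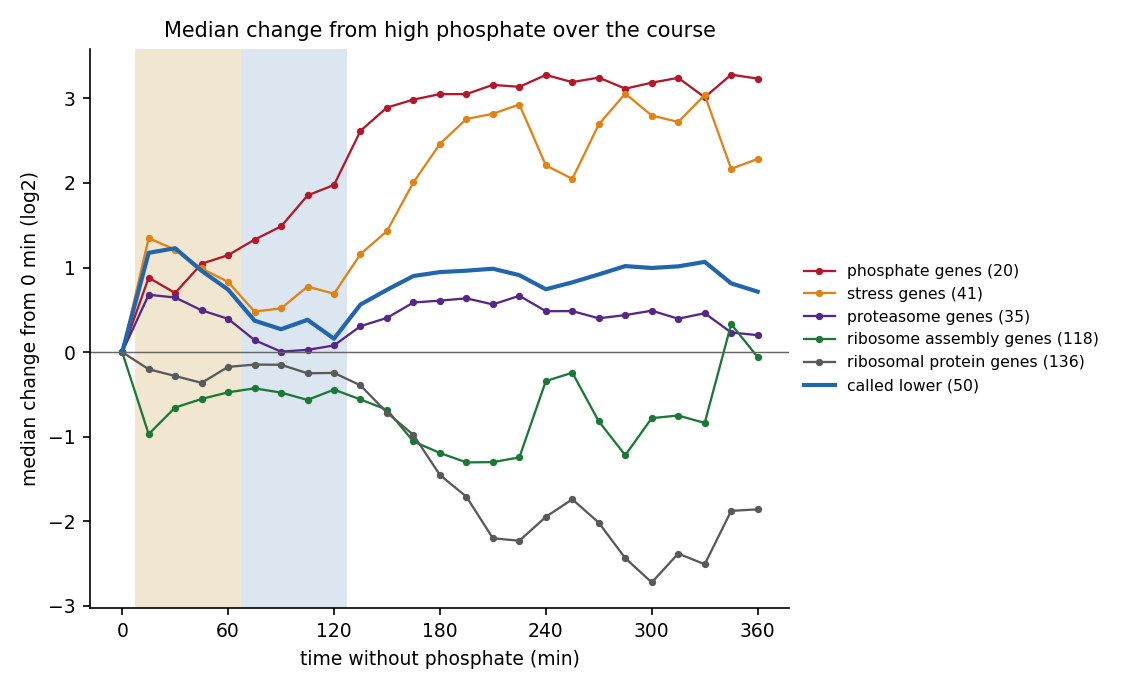
Median change from the 0 min library (y, log2) over the 24 times without phosphate (x, min) for 5 gene lists and for the genes called lower, counting members listed in all 25 libraries (number in brackets), with the first hour shaded tan and the second blue. Stress and called-lower genes are raised in the first hour, lower in the second and higher again from 135 min on the deposited scale, while the phosphate genes climb to about 3 and then level off.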

How the data were processed

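Total RNA from 25 yeast libraries was sequenced on a HiSeq, after lyticase treatment and a column kit in plate format, per the labels' protocols. Values are deposited by the authors as log2 RPM, with no value for genes under 15 reads. Bowtie and build R64 are named in the submitters' processing notes, and the counter, annotation, strand setting and overexpression promoter are not stated. Recovered reads were mostly but not nearly all whole, so no count model was used.

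The second hour was tested against the first with limma 3.58.1 in R 4.3.3 (trend and robust estimation, two-sided) on the log2 values, with Benjamini-Hochberg adjustment over all tested genes. A call needed an adjusted p under 0.05 and 1.5-fold. All adjusted p-values are limma's. A ± after a difference is its standard error and after a share its standard deviation.

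Members and lists were chosen with earlier results of these data known. Named were PHO90, all phosphate genes, the 15 largest calls in each direction with and without centring, up to 4 members per other list, up to 10 genes listed in 1 hour alone and strain markers. Other genes were picked after their values were seen. Alternatives covered scaling, filters, a pseudocount, the variance model, trend, size limit and each library left out. Motifs were sought in the 500 bases before RefSeq start codons (build R64), with no map to binding. CACGTG and TCCGCGGA read alike on both strands.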

Additional observations from a re-analysis of the deposited data

Results flagged for a closer look

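In 12 of 343 groups of 4 libraries, 1 library stood far from the other 3, where chance alone marks about 1 in 20 groups. In the phosphate pathway these were PHO89 at 30 min (5.12), VIP1 at 15 min (5.54), SYG1 at 15 min (6.32) and PHO23 at 120 min (5.23), all in log2 RPM. Among genes that fell, HSP12 stood apart at 75 min (10.37), GRE2 at 120 min (8.95) and UMP1 at 75 min (6.98). The others were the ribosomal protein gene RPS7B at 75 min (9.19), the ribosome assembly genes RRP36 at 105 min (6.16) and DBP2 at 45 min (7.58), GDB1 of glycogen breakdown at 120 min (4.6) and NQM1 of the pentose phosphate list at 105 min (3.77).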

How the results depend on the processing

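Against 8 higher and 53 lower genes, centring gave 33 lower genes, scaling to reads outside ribosomal protein genes 12 higher and 29 lower, trimmed mean scaling 14 and 30, no trend and no robust estimation 2 and 2, library quality weights 34 and 106, a linear trend of time 19 and 59, all 24 libraries without phosphate in 1 fit 13 and 46, and a 2-fold limit 2 and 8. An adjusted p alone gave 12 and 73. With libraries centred (11 and 33), the linear trend gave 24 and 49, the 2-fold limit 3 and 6, no trend and no robust estimation 3 and 2, quality weights 48 and 82, all 24 libraries 16 and 29 and an adjusted p alone 15 and 51. Leaving out 1 library gave 4 to 28 higher and 7 to 130 lower genes, or 2 to 40 and 2 to 93 centred. The other filters and log2(RPM + 5) stayed within 1.5 times of these counts. The cause of these moves was not tested. Among named genes, PPN1 changed sign with quality weights (-0.008) and between -0.035 and 0.085 with 1 library left out. Of 1296 gene-by-setting values over 62 genes, 1014 kept their direction and side of the threshold, 207 lost the call, 72 gained one and 3 changed sign. As deposited 1885 differences were positive and 2591 negative, and centred 2246 and 2230. Later steps were recomputed only with centring. No paired analysis was possible because the libraries are successive time points of 1 course and a number shared between hours marks no common source. The shallow 15 min library limits low genes, those under a log2 RPM of 5.06.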
